A study of Mus musculus with 2 samples.

Results

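Integrins and laminins, the receptors and the basement membrane proteins through which cells hold on to their matrix, were examined in a comparison of DNA methylation between PDGFRα+ and CD137+ adipose progenitors of C57BL/6 mice. The set held 35 genes, 25 of integrin subunits and 10 of laminin chains, out of 21896 protein-coding genes in the annotation used. A region was assigned to a gene when it overlapped the gene span or the 2 kb on either side. Of the 28141 differentially methylated regions in the authors' deposited table, 68 were assigned to these genes.

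The assay was whole-genome bisulfite sequencing. Bisulfite converts cytosines that carry no methyl group and leaves methylated cytosines as they are, so a methylation level is the fraction of cytosine readings in a region that stayed unconverted. One library came from PDGFRα+ (CD140+) cells, sorted for the platelet-derived growth factor receptor of mesenchymal progenitors, and 1 from CD137+ cells, sorted for a TNF-family receptor used to mark beige adipocyte precursors. Both populations were separated with magnetic beads, grown in culture and given an adipogenic cocktail. Both then received the synthetic glucocorticoid dexamethasone at 1 µM, so no untreated cells were compared. The labels name subcutaneous or visceral fat as the source without saying which depot gave which library, and they state the strain without age, sex or any engineered allele. Each group had 1 library, so differences are without replicates and without p-values. The sequencing depth is unknown, so levels carry no interval. At the sorting markers, the single region of Pdgfra had a level of 0.210 in PDGFRα+ cells and 0.769 in CD137+ cells, and Tnfrsf9, the gene of CD137, had 0 regions within 2 kb.

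An integrin is a pair of an alpha and a beta subunit, and the pair sets both the ligand and the cell type. Several alpha subunits on mesenchymal cells bind collagen, fibronectin or laminin, while the partners of Itgb2 and Itgb7 are made mainly by leukocytes. Laminins are cross-shaped trimers of an alpha, a beta and a gamma chain that polymerise into the basement membrane, a layer that surrounds each mature adipocyte. Inside the cell, integrin tails bind adaptors such as talin and kindlin, which link them to actin.

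Of the 68 regions 66 lay in or across a gene span and 2 in the flanks. The RefSeq promoter table had an entry for 23 of the 35 members, and 16 of these had a region. None of their 49 regions overlapped a listed window, which runs from 250 bases before to 50 bases after a start, and the median distance to the nearest listed start was 42.3 kb. Only 3 of them lay within 5 kb, in Itga3, Itga4 and Itga2b. The matching figures over all listed regions were not computed, so these counts do not mark a trait of the set. The 250 bases upstream of the listed start are shown for a pair of leukocyte integrin genes with regions higher in PDGFRα+ cells, Itga4 and Itgb7. The same stretch is shown for Itgav and Lamb1, whose regions were all lower. In Itgb7, Itgav and Lamb1 the listed start lies inside the gene span and not at its end. Sequences are from RefSeq (GRCm38.p6), 5′ to 3′ on the gene's own strand, and capitals mark the CG dinucleotides, the usual sites of DNA methylation in mammals.
Itga4 (chr2:79255176-79255425, plus strand): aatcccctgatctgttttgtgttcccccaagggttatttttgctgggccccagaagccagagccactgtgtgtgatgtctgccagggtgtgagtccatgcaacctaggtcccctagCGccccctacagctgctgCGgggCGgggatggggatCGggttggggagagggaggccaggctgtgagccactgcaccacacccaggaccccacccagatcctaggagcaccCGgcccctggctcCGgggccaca
Itgb7 (chr15:102231936-102232185, minus strand): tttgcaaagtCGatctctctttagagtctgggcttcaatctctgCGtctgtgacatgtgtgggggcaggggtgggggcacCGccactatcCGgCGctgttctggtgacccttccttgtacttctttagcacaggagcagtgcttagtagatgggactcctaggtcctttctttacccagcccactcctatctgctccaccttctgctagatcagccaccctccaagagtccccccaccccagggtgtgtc
Itgav (chr2:83724147-83724396, plus strand): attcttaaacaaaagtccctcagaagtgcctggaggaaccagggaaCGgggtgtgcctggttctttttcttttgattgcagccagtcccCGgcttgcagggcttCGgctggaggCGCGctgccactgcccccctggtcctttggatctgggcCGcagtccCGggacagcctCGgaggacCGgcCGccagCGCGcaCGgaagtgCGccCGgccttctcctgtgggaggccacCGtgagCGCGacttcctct
Lamb1 (chr12:31265043-31265292, plus strand): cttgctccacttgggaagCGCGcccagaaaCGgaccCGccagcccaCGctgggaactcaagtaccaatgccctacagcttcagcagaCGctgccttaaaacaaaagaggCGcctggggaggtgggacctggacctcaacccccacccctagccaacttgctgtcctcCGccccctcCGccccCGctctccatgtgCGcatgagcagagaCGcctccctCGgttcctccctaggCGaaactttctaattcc
The letters CG, which read the same on both strands, occurred 6 times in the Itga4 window, 5 times in the Itgb7 window, 18 times in the Itgav window and 14 times in the Lamb1 window. The count did not separate the directions, since the windows of members with lower regions only ran from 2 in Itga10 and Itga2b and 3 in Lamb2 to 22 at 1 of the starts of Itga3. The median over 21262 such windows of protein-coding genes was 10, and 93.4% of them held at least 1. The nearest region lay 2.2 kb from the listed start in Itga4, 6.2 kb in Itgb7, 9.6 kb in Itgav and 29.3 kb in Lamb1.

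Over the whole set most regions were lower in PDGFRα+ cells. Of the 68 regions, 52 (76.5%) were lower and 16 (23.5%, 95% Wilson interval 15.0 to 34.9) were higher. This is close to all listed regions, of which 77.7% were lower and 22.3% higher. The median difference, PDGFRα+ minus CD137+, was -0.50 over member regions and -0.49 over all regions. At least 1 region was listed for 26 members (74.3%), against 29.5% of all protein-coding genes. The members are long, with a median span of 62.5 kb against 17.2 kb, and 72.0% of the 4007 protein-coding genes at least that long had a region. The 72.0% covers only genes of at least that span and the 74.3% covers members of every length, so these shares are of unlike sets. Among members at least that long only Itgb8 (75.5 kb) had no region, so the share of these members with a region was above 72.0%. That gap was not tested. The other members without a region were all shorter. By gene, 13 members had lower regions only, 4 had higher regions only and 9 had both, against 58.5%, 18.5% and 23.0% of the protein-coding genes with a region. The Wilson intervals cover counting error only and treat regions as independent.

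**Figure D1:**
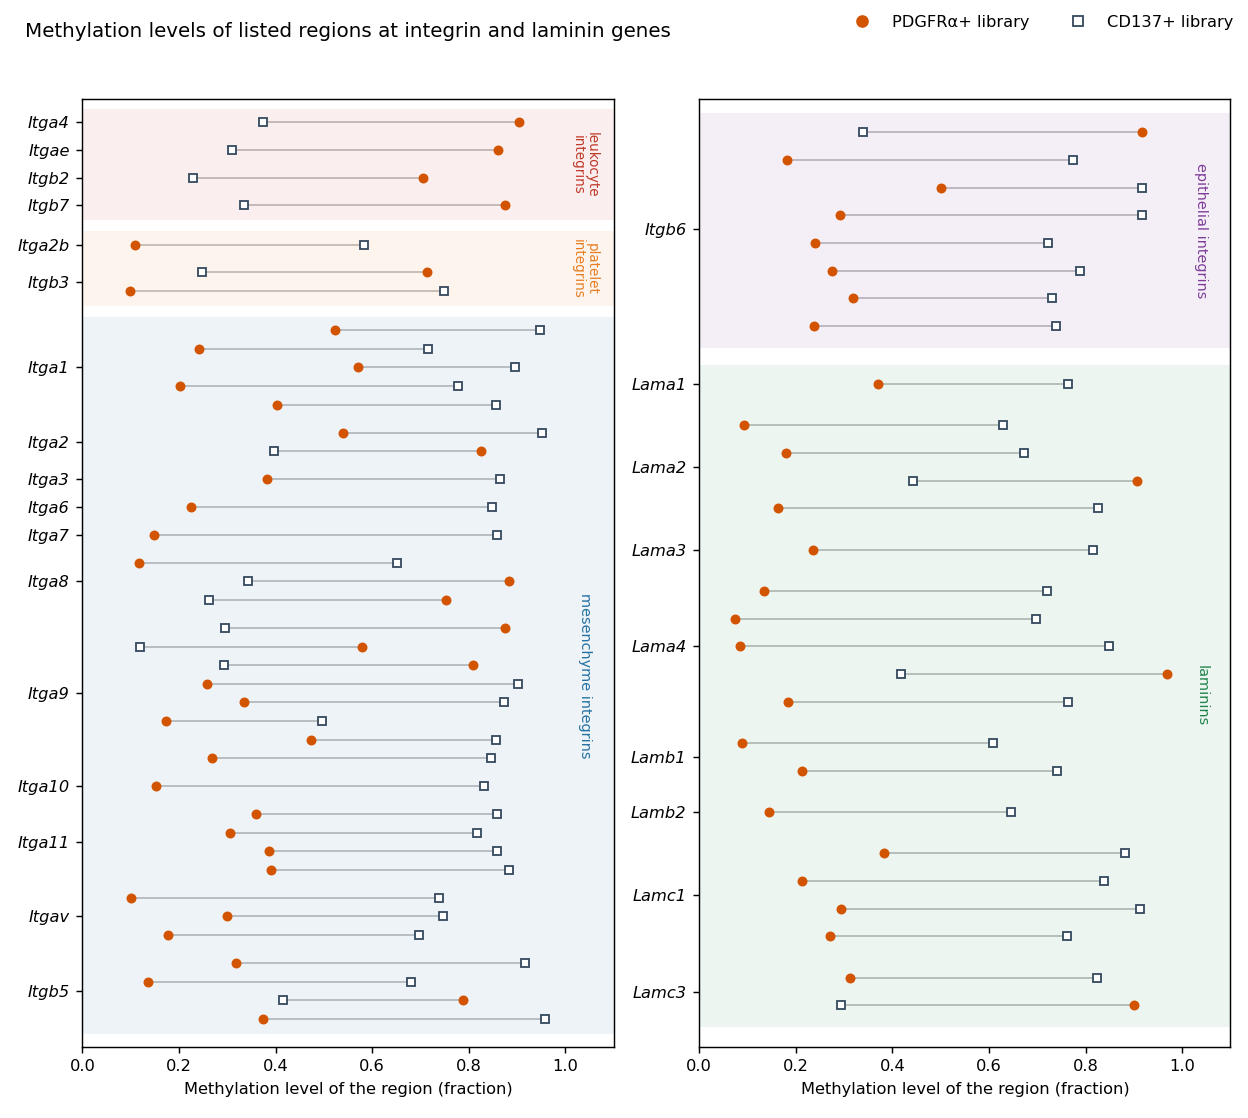
Methylation level (fraction, x axis) of each of the 68 regions, 1 line per region, in the PDGFRα+ library (filled circles) and the CD137+ library (open squares), grouped by gene and role and ordered by position within a gene. The 4 leukocyte integrin regions have the circle on the right, at 0.705 to 0.904, and 52 of the other regions have it on the left.

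All 4 leukocyte integrin genes with a region had 1 region each, and it was more methylated in PDGFRα+ cells. Itga4, which pairs with Itgb1 or Itgb7 and serves lymphocyte homing, had 1 region of 613 bases and 8 cytosines (chr2:79257635-79258248). Its level was 0.904 in PDGFRα+ cells and 0.375 in CD137+ cells. Itgb7, the beta subunit of gut-homing lymphocytes, had 1 region (chr15:102225577-102225695, 5 cytosines) with a level of 0.875 in PDGFRα+ cells and 0.334 in CD137+ cells. Both genes of this pair thus stood high in the same library. Itgae, the subunit known as CD103 that joins Itgb7 on intraepithelial T cells and binds E-cadherin, had 1 region (chr11:73131078-73131374, 12 cytosines). Its level was 0.861 in PDGFRα+ cells and 0.311 in CD137+ cells. Itgb2, the subunit known as CD18 that is shared by the main leukocyte integrins, had 1 region of 11 cytosines that covered the lower end of its gene span (chr10:77530237-77530523). The level was 0.705 in PDGFRα+ cells and 0.230 in CD137+ cells, the lowest of these 4 regions in both libraries. A further region 3329 bases above the upper end of Itgb2, outside the 2 kb limit, was lower. It had 0.148 in PDGFRα+ cells and 0.829 in CD137+ cells.

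The count of 4 higher regions out of 4 (Wilson interval 51.0 to 100%) stands beside 22.3% of all regions. All 4 genes held exactly 1 region, and of the 3324 protein-coding genes with exactly 1 region, 29.1% had it higher. The other 8 members with exactly 1 region, none of them a leukocyte integrin, all had it lower, beside 70.9% of those protein-coding genes. For Itga7 and Lamb2, which are among the 8, the region lay outside the gene span and inside another gene. The group is small and the difference between gene groups was not tested. The alpha partners of Itgb2 that are encoded side by side on chromosome 7, Itgam, Itgax and Itgad, which mark myeloid cells, had 0 regions within 2 kb. A region 3.2 kb below Itgam, on the upstream side of this plus-strand gene, had a level of 0.833 in PDGFRα+ cells and 0.238 in CD137+ cells. A region 8.0 kb above Itgax had levels of 0.656 in PDGFRα+ cells and 0.195 in CD137+ cells. For Itgad the nearest region lay 10.4 kb above the gene, with levels of 0.248 in PDGFRα+ cells and 0.790 in CD137+ cells. Itgal, the leukocyte alpha subunit that binds ICAM proteins and is not a member of the set, went the other way. Its only region (chr7:127326296-127326518) had a level of 0.366 in PDGFRα+ cells and 0.916 in CD137+ cells.

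Regions at immune and endothelial marker genes were also mostly higher in PDGFRα+ cells, against 22.3% of all regions. Among 21 immune markers, Itgal included, 13 had a region and 25 of their 31 regions (80.6%) were higher in PDGFRα+ cells, with PDGFRα+ levels of 0.720 to 0.957 and CD137+ levels of 0.161 to 0.571 in those 25. By gene, 7 of the 13 had higher regions only, among them Ptprc (8 of 8) and Ikzf1 (5 of 5), and 3 had regions of both directions, Spi1, Lcp1 and Cd74. The other 3, Cd3e, Mrc1 and Itgal, had lower regions only. The region of Cd3e had a level of 0.324 in PDGFRα+ cells and 0.966 in CD137+ cells, and that of Mrc1 had 0.238 in PDGFRα+ cells and 0.789 in CD137+ cells. Cd52, Cd53, Adgre1, Cd68, Lyz2, Cd3g, Cd79a and Ms4a1 had no region. Among 10 endothelial markers 9 had a region, all but Cldn5, and 17 of 26 regions (65.4%) were higher. Of these 9 genes 5 had higher regions only, 2 (Tek and Emcn) had lower regions only and 2 (Erg and Vwf) had both. Of 12 mesenchymal markers 6 had a region, and only 1 of their 22 regions (4.55%) was higher. Pdgfrb, Thy1, Ly6a, Cd34, Lum and Pi16 had none. Of 10 epithelial and mesothelial markers 4 had a region, and 1 of 8 regions (12.5%) was higher. The part of such cells in the levels of the leukocyte integrins was not tested.

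**Figure D2:**
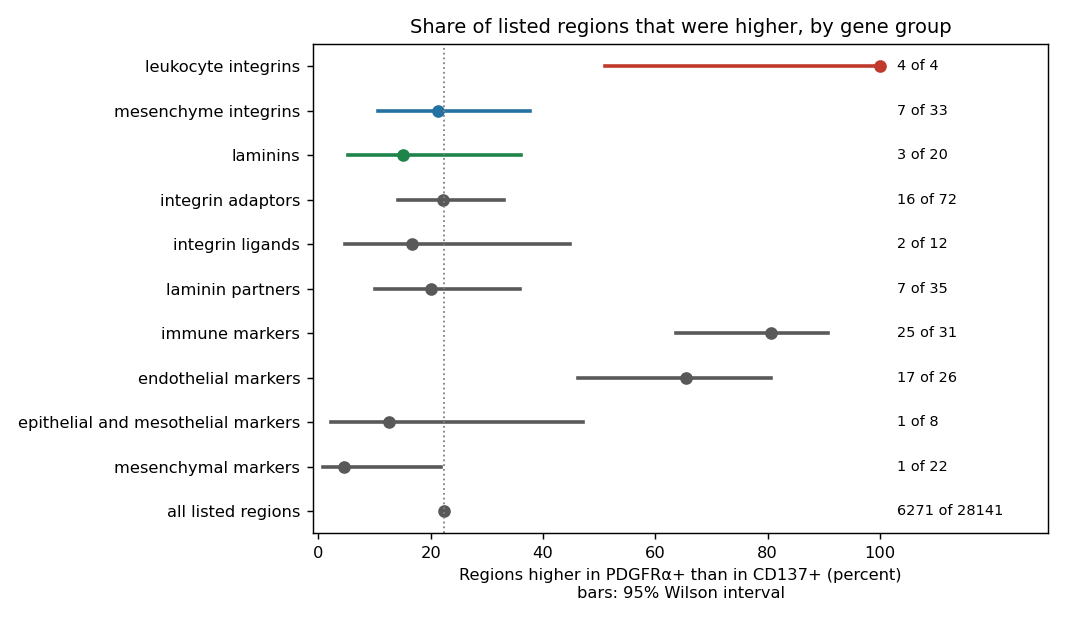
Percentage of listed regions that were higher in PDGFRα+ than in CD137+ cells (x axis) for the gene groups named on the y axis, with 95% Wilson intervals as bars and the counts at the right. The dotted line marks the 22.3% of all regions: leukocyte integrins, immune markers and endothelial markers lie above it with their whole interval, mesenchymal markers lie below it, and the intervals of mesenchyme integrins, laminins, adaptors, ligands and laminin partners cross it.

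The 2 platelet integrin genes were split. Itga2b, the alpha subunit of the platelet fibrinogen receptor, had 1 lower region of 22 cytosines (chr11:102465835-102466340), with levels of 0.110 in PDGFRα+ cells and 0.583 in CD137+ cells. Itgb3, its beta partner, which also pairs with Itgav as a vitronectin receptor of mesenchymal cells and osteoclasts, had a region in each direction. The one 1.3 kb above the lower end of the span had levels of 0.715 in PDGFRα+ cells and 0.247 in CD137+ cells. The one at 17.6 kb had levels of 0.0995 in PDGFRα+ cells and 0.748 in CD137+ cells, and this was the lowest PDGFRα+ level among integrin regions.

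Integrins of mesenchyme mostly had regions that were less methylated in PDGFRα+ cells, at the rate of all regions. Of these 14 genes 11 had a region, and 26 of 33 regions were lower and 7 (21.2%, interval 10.7 to 37.8) higher, beside 22.3% of all regions. The median level of the 26 lower regions was 0.302 in PDGFRα+ cells and 0.856 in CD137+ cells. By gene, 7 of the 11 had lower regions only and 4 had both directions, beside 58.5% and 23.0% of protein-coding genes with a region. None had higher regions only, beside 18.5% of those genes.

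Among the 4 collagen receptors, 11 of 12 regions were lower, beside 77.7% of all regions, and the interval of the higher share (1.49 to 35.4%) includes the 22.3% of all regions. Itga1 was lower in 5 of 5 regions, spread between 56.1 and 124.2 kb from the lower end of its 143.9 kb span, with PDGFRα+ levels of 0.203 to 0.571 and CD137+ levels of 0.716 to 0.947. The widest difference was -0.57, in a region of 15 cytosines (chr13:115054599-115055082). Itga11, the collagen receptor of fibroblasts, was lower in 4 of 4 regions. Its levels lay within 0.305 to 0.390 in PDGFRα+ cells and 0.816 to 0.884 in CD137+ cells, a narrower spread than that of Itga1. Itga10, known from cartilage, had 1 lower region (chr3:96662647-96663180) with levels of 0.152 in PDGFRα+ cells and 0.832 in CD137+ cells. Itga2, which lies 25979 bases from Itga1 on chromosome 13, was split. Its region at 22.6 kb from the lower end had levels of 0.540 in PDGFRα+ cells and 0.953 in CD137+ cells, and the region at 52.2 kb had 0.825 in PDGFRα+ cells and 0.398 in CD137+ cells.

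The 3 laminin-binding alpha subunits had 1 lower region each. Itga7, the laminin receptor of muscle, had levels of 0.148 in PDGFRα+ cells and 0.858 in CD137+ cells, a difference of -0.71 that is the widest of any integrin gene here. That region lies 1557 bases above the gene span, inside Mettl7b (chr10:128959843-128960133), so it cannot be assigned to Itga7 alone. Itga6, which pairs with Itgb1 or, in hemidesmosomes, with Itgb4, had levels of 0.225 in PDGFRα+ cells and 0.849 in CD137+ cells (chr2:71834390-71834483). Itga3 had levels of 0.383 in PDGFRα+ cells and 0.865 in CD137+ cells in a region 2.0 kb from a listed start (chr11:95074601-95074700). CD137+ levels of these genes lay within 0.849 to 0.865, while PDGFRα+ levels ranged more widely, from 0.148 to 0.383.

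Among receptors for the RGD motif of fibronectin and vitronectin, Itgav had the region with the largest statistic of all 68. Itgav, the alpha subunit shared by several vitronectin and fibronectin receptors, was lower in 3 of 3 regions. The first (chr2:83734037-83734536) held 28 cytosines and had levels of 0.101 in PDGFRα+ cells and 0.739 in CD137+ cells. Its area statistic, the authors' summed score per region, was -365.4 and ranked 183 of 21870 lower regions by size. The other 2 regions, 52 bases apart, had levels of 0.30 and 0.178 in PDGFRα+ cells and 0.747 and 0.697 in CD137+ cells. Itgb5, a partner of Itgav, had 3 lower regions with levels of 0.135 to 0.373 in PDGFRα+ cells and 0.680 to 0.957 in CD137+ cells. Between them lay 1 higher region (chr16:33885021-33885097) with 0.787 in PDGFRα+ cells and 0.416 in CD137+ cells.

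Itga8, the nephronectin receptor of embryonic kidney and smooth muscle, was the only mesenchyme integrin gene with more higher than lower regions. Its 2 higher regions had levels of 0.884 and 0.753 in PDGFRα+ cells and 0.342 and 0.263 in CD137+ cells. The lower one had 0.117 in PDGFRα+ cells and 0.652 in CD137+ cells. Itga5, the fibronectin receptor, Itgb1, the beta partner of most alpha subunits on mesenchymal cells, and Itgb8, which activates latent TGF-beta, had no region within 2 kb. For Itgb1 the nearest listed region lay 196.9 kb away, the farthest of the 9 members without one. It lay 27.5 kb away for Itga5, with 0.133 in PDGFRα+ cells and 0.773 in CD137+ cells. For Itgb8 it lay 5.5 kb away, with 0.747 in PDGFRα+ cells and 0.230 in CD137+ cells.

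The regions of Itga9 were split by position along the gene. Itga9 encodes a receptor for tenascin-C and other ligands, known for its part in lymphatic valves, and its 8 regions, as many as in Itgb6, are the most of any member. The 3 regions nearest the lower end, at 14.6, 26.2 and 70.7 kb, were higher, with levels of 0.876, 0.580 and 0.808 in PDGFRα+ cells and 0.296, 0.120 and 0.294 in CD137+ cells. The 5 regions from 98.2 to 278.9 kb were all lower, with PDGFRα+ levels of 0.173 to 0.473 and CD137+ levels of 0.496 to 0.902. The gene is on the plus strand, and the one promoter window that RefSeq lists for it ends at 118711691, inside the span. All 3 higher regions and 1 of the lower regions therefore lie upstream of that listed start. Without Itga9, 4 of 25 mesenchyme integrin regions (16.0%) were higher.

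**Figure D3:**
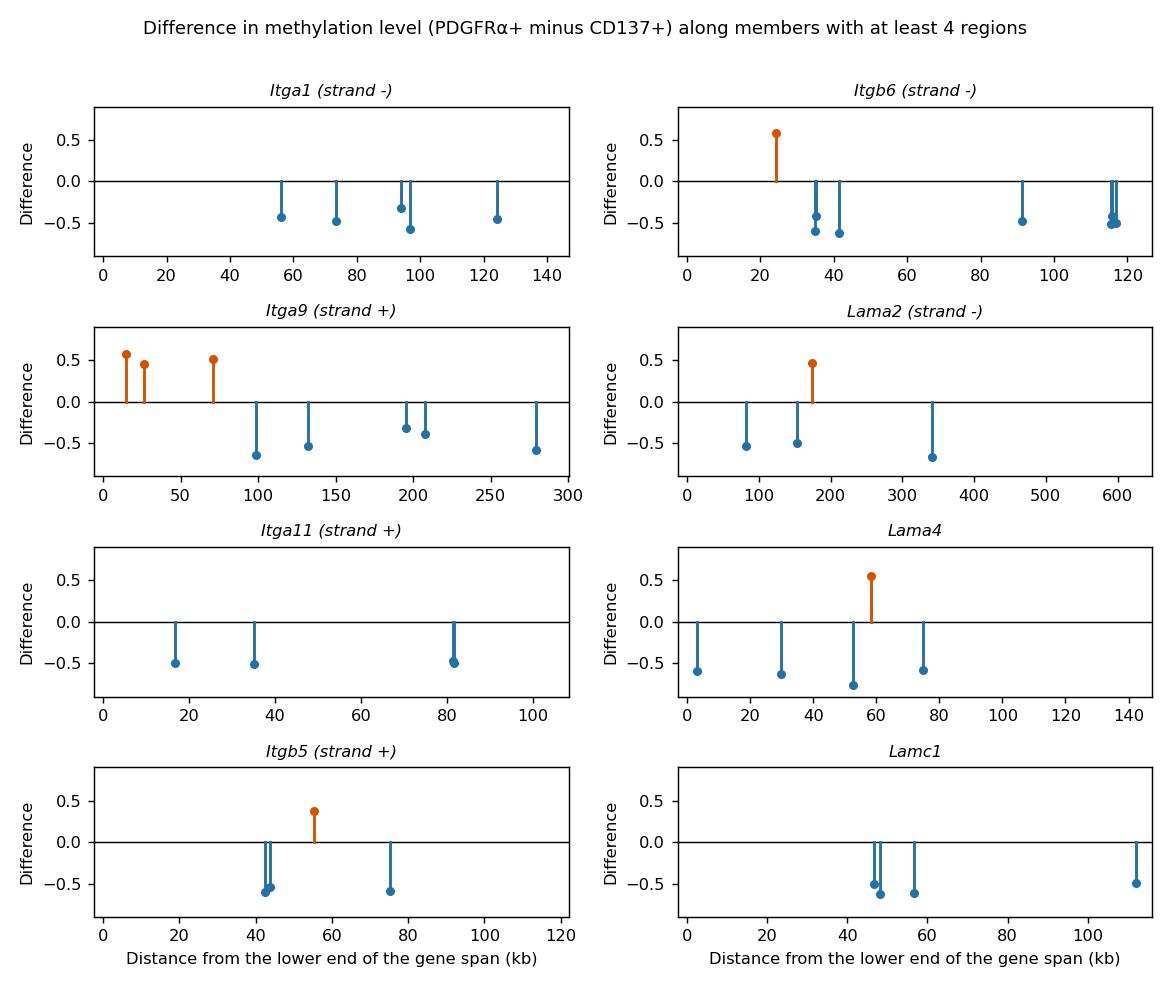
Difference in methylation level (PDGFRα+ minus CD137+, y axis, fraction) at the midpoint of each region along the 8 members with at least 4 regions, with distance from the lower end of the gene span on the x axis in kb and strand where the promoter table gives it. Orange stems are higher and blue stems lower in PDGFRα+ cells: Itga1, Itga11 and Lamc1 have blue stems only, and the 3 orange stems of Itga9 stand together at its lower end.

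Of the epithelial integrins, Itgb6, the beta subunit that activates latent TGF-beta in epithelia, was lower in 7 of 8 regions. Levels in those 7 were 0.182 to 0.50 in PDGFRα+ cells and 0.723 to 0.917 in CD137+ cells. The exception, the region farthest from the upper end (chr2:60622304-60622546, 14 cytosines), had 0.918 in PDGFRα+ cells and 0.339 in CD137+ cells. The 3 regions nearest the upper end of this minus-strand gene lay between 7.3 and 8.7 kb from it and also overlapped Gm33436, a long non-coding RNA gene. They had levels of 0.238 to 0.318 in PDGFRα+ cells and 0.730 to 0.788 in CD137+ cells. Itgb4, the hemidesmosome subunit, had no region within 2 kb, and the nearest lay 32.4 kb away with 0.391 in PDGFRα+ cells and 0.932 in CD137+ cells.

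Laminin genes were mostly less methylated in PDGFRα+ cells. Of the 10 genes 8 had a region, and 17 of 20 regions (85.0%) were lower, beside 77.7% of all regions. The other 3 (15.0%, interval 5.24 to 36.0) were higher, and their interval includes the 22.3% of all regions. The median difference was -0.52. By gene, 5 of the 8 had lower regions only and 3 had both directions, beside 58.5% and 23.0% of protein-coding genes with a region.

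Lama4, the alpha chain of endothelial, fat and muscle basement membranes, held the 2 lowest PDGFRα+ levels of the set. It was lower in 4 of 5 regions, with levels of 0.135, 0.0740, 0.0852 and 0.185 in PDGFRα+ cells and 0.721, 0.697, 0.848 and 0.763 in CD137+ cells. The third of these, of only 4 cytosines (chr10:39018022-39018074), had the widest difference of all 68 regions, -0.76. The single higher region, 5769 bases further along (chr10:39023843-39024059), had 0.968 in PDGFRα+ cells and 0.419 in CD137+ cells, the highest PDGFRα+ level of the set. Both extremes of PDGFRα+ methylation thus occurred within 1 gene.

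Lama2, the alpha chain of muscle and nerve laminins, was lower in 3 of 4 regions of its 635.9 kb span. Levels of the 3 were 0.0927 to 0.179 in PDGFRα+ cells and 0.630 to 0.825 in CD137+ cells, and the higher one (chr10:27155186-27155465) had 0.907 in PDGFRα+ cells and 0.443 in CD137+ cells. Lama1, an early embryonic chain, had 1 lower region of 21 cytosines with 0.370 in PDGFRα+ cells and 0.764 in CD137+ cells. Lama3, the alpha chain of the epidermal laminin, had 1 lower region of 19 cytosines with 0.236 in PDGFRα+ cells and 0.816 in CD137+ cells. Lama5, the most widespread adult alpha chain, had no region within 2 kb. The nearest lay 2.3 kb away, just outside the limit, with 0.398 in PDGFRα+ cells and 0.917 in CD137+ cells.

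The beta and gamma chains were lower in 8 of 9 regions, and the interval of the higher share (1.99 to 43.5%) again includes the 22.3% of all regions. Lamb1 and Lamc1 encode the chains that join most alpha chains outside the skin, and all 6 of their regions were lower. Lamb1 had levels of 0.0894 and 0.213 in PDGFRα+ cells and 0.608 and 0.741 in CD137+ cells. Lamc1 had levels of 0.214 to 0.383 in PDGFRα+ cells and 0.761 to 0.912 in CD137+ cells over 4 regions, of which 3 lay 57.0 to 67.2 kb and 1 only 1.7 kb below the upper end of the gene. Lamb2, the beta chain of synapses and kidney glomeruli, had 1 lower region, with 0.145 in PDGFRα+ cells and 0.645 in CD137+ cells. It lay 1996 bases beyond the gene, inside Usp19, and is at the edge of the 2 kb limit. Lamc3 was split, with 0.312 in PDGFRα+ cells and 0.824 in CD137+ cells at 7.2 kb from the lower end and 0.901 in PDGFRα+ cells and 0.294 in CD137+ cells near the upper end (chr2:31946565-31946810). Lamb3, the epidermal beta chain, had no region within 2 kb. The nearest lay 24.3 kb away, with 0.0901 in PDGFRα+ cells and 0.894 in CD137+ cells.

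**Figure D4:**
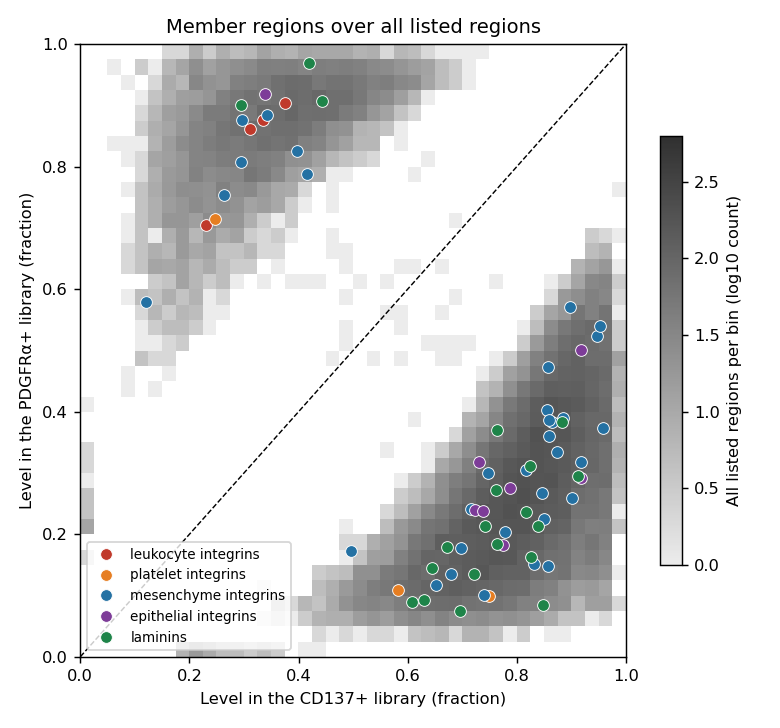
Level in the PDGFRα+ library (y axis, fraction) against the level in the CD137+ library (x axis, fraction) for the 68 member regions, coloured by role, over a grey map of the 28141 listed regions (log10 count per bin) with the line of equal levels dashed. Member regions lie within both clouds of listed regions, the 4 leukocyte integrin regions all in the upper left cloud.

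The levels themselves were like those of other listed regions of the same direction. In the 52 lower member regions the median was 0.241 in PDGFRα+ cells and 0.816 in CD137+ cells, against 0.261 in PDGFRα+ cells and 0.820 in CD137+ cells over all lower regions. In the 16 higher member regions the median was 0.868 in PDGFRα+ cells and 0.322 in CD137+ cells, against 0.879 in PDGFRα+ cells and 0.344 in CD137+ cells over all higher regions. Every absolute difference in the set lay between 0.322 and 0.763. Member regions had a median length of 244.5 bases and 10 cytosines, against 216.0 bases and 9 cytosines. The median cytosine density was 3.36 per 100 bases in laminin regions, 5.71 in regions of mesenchyme integrins and 4.62 in all regions. Of 42 pairs of neighbouring regions within a member, 30 (71.4%) had the same direction, near the 73.3% over protein-coding genes. All 5 pairs within 1000 bases of each other, in Itgb6, Itga11 and Itgav, were lower in both regions. The share over all genes was not computed for pairs this close, so this count marks no trait of the set. Of the 8 members with at least 4 regions, 3 (Itga1, Itga11 and Lamc1) had every region lower, against 31.8% of protein-coding genes with as many.

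At other genes of the pathway most regions were also lower in PDGFRα+ cells. Of 25 genes of adaptors and kinases at integrin tails 19 (76.0%) had a region, beside 29.5% of all protein-coding genes. Gene lengths were not matched in this share or in those of the lists below. Of their 72 regions 16 (22.2%) were higher, beside 22.3% of all regions. Tns3 and Tns1, tensins that tie beta subunits to actin, were lower in 12 of 13 and 9 of 10 regions, with mean levels of 0.379 and 0.295 in PDGFRα+ cells and 0.821 and 0.763 in CD137+ cells. Nedd9, a scaffold of focal adhesions, was lower in 7 of 8, while Ptk2b, a kinase related to focal adhesion kinase, was lower in 4 of 7.

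Of 14 genes of integrin ligands 6 (42.9%) had a region, beside 29.5% of all protein-coding genes. Of their 12 regions 2 (16.7%, interval 4.70 to 44.8) were higher, and the interval includes the 22.3% of all regions. Fbln1, a matrix glycoprotein, was lower in 4 of 4 regions (mean level 0.272 in PDGFRα+ cells and 0.841 in CD137+ cells). Tnc, the tenascin bound by Itga9, was lower in 2 of 2 (0.222 in PDGFRα+ cells and 0.836 in CD137+ cells). Npnt, the ligand of Itga8, was lower in 2 of 3, and Thbs1, encoding thrombospondin, in its only region. Of 14 genes of laminin partners 9 had a region, and 7 of 35 regions (20%) were higher. Hspg2, the basement membrane proteoglycan perlecan, and Sgcd, a sarcoglycan of the dystrophin complex, were each lower in 5 of 6 regions. Ntn4, a laminin-related netrin, was lower in 3 of 5, and Utrn, the dystrophin relative utrophin, in 2 of 5.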

How the data were processed

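The deposited table held 1 row per differentially methylated region, for 1 library of PDGFRα+ and 1 of CD137+ cells. Per the file headers, the authors gave each region's position, length, number of cytosines, the methylation level of each library as a fraction, the difference CD140 minus CD137 and an area statistic, a score with no fixed range. The deposited difference equals that of the levels within 0.0001. Per the submitters' processing notes, coordinates are on mm10. The aligner, callers, thresholds and coverage were not given in the sources used here. The table lists called regions only, and 199 have an absolute difference under 0.3, so shares describe listed regions. Region starts follow the deposited table, whose numbering (from 0 or from 1) is not stated in it.

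Regions were matched to RefSeq spans (GRCm38.p6, the assembly of mm10) plus 2 kb on either side, and all 35 symbols matched. Exons were not used here. Tested on simulated data, the overlap search assigned 200 of 200 planted regions as built, and for 300 real genes a brute-force search differed in 0. Groups are described by counts and medians, with no test. The members and gene lists were chosen with earlier results of these data known. Every member with a region is named, and up to 4 genes of each pathway list, by number of regions; other genes were named after their values were seen. Not every item of the lists is reported here. The software was Python 3.11.15 with pandas 2.3.3, numpy 2.4.6, matplotlib 3.10.9 and scipy 1.17.1.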

Additional observations from a re-analysis of the deposited data

How the results depend on the processing

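The counts of members with a region, the shares of higher regions and the median difference were recomputed without flanks, with 10 kb on either side, with differences of at least 0.5, with at least 10 cytosines, with statistics above the median, with close regions merged, without regions at another protein-coding gene and without the member with the most regions. The median difference over member regions was -0.56 with differences of at least 0.5, which keeps the wider ones by construction, against -0.50, and it stayed within its interval under the other 7. Members with a region numbered 18 to 30. The share of higher regions ran from 12.5% to 25% in mesenchyme integrins and from 7.14% to 15.8% in laminins. In leukocyte integrins it was 100% except with 10 kb on either side (6 of 7 regions, 85.7%). The other settings only keep, drop or merge the same 4 regions, all of them higher, so 100% was fixed there in advance. At least 10 cytosines, or a statistic above the median, left 2 of 2 regions. Differences of at least 0.5, or leaving out Itgae, left 3 of 3. In alternatives chosen after seeing the data the leukocyte integrin share was 80% with Itgal and 71.4% with the platelet integrins added. No paired analysis was possible because each group had 1 library, and for the same reason no library could be left out. The unknown depth limits every level.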

Other observations

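With 10 kb on either side, the leukocyte integrin genes gained the regions beside Itgam and Itgax, both higher in PDGFRα+ cells, and a lower one 3329 bases above Itgb2 (chr10:77569037-77569091), with levels of 0.148 in PDGFRα+ cells and 0.829 in CD137+ cells. The regions at the lower end of Itgb2 and above its upper end thus went in opposite directions.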
